A study of Homo sapiens with 4 samples.

Results

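Expression of 10 genes of glycolysis, HK1, HK2, PFKP, ALDOA, TPI1, GAPDH, PGK1, ENO1, PKM and LDHA, was taken from RNA-seq of UM-UC-3, a human cell line established from a bladder cancer. The genes were chosen by name from the pathway, with PKM included because its pre-mRNA is spliced under the control of PTBP1 and GAPDH because it served as the reference gene of the RT-qPCR. All 10 were listed in each of the 4 tables, against 25719 genes listed for the control library and 24039 listed in all 4. The cells were transfected with 75 nM siRNA for 48 hrs and gave 1 library per condition: a negative control siRNA, a pair of siRNAs against hnRNPK (si-hnRNPK), a pair against lncRNA-LBCS (si-lncRNA-LBCS) and a pair against PTBP1 (si-PTBP1). All 4 conditions thus share the cell line, the siRNA dose and the time. There were no replicates, so each difference below compares 2 libraries, carries no p-value, and cannot be told apart from the variation between cultures.

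Glycolysis turns glucose into pyruvate in the cytosol, and lactate dehydrogenase then turns pyruvate into lactate. Hexokinase traps glucose in the cell, phosphofructokinase is the main committed step, and phosphoglycerate kinase and pyruvate kinase are the steps that make ATP. Many tumour cells run this pathway at a high rate even in the presence of oxygen. Pyruvate kinase of the muscle type is made as PKM1 or PKM2 by the use of one or the other of a pair of mutually exclusive exons, and the splicing repressors PTBP1, hnRNPA1 and hnRNPA2B1 are known to hold back the PKM1 exon. hnRNPK is an RNA-binding protein of the same broad family.

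The siRNAs are shown because they define the conditions and because short matches to them in the members are counted further on. They are written as the sense strand, 5′ to 3′, and the capitals mark the 7 bases that a transcript must hold to pair with bases 2 to 8 (the seed) of the guide strand.
si-hnRNPK siRNA-1: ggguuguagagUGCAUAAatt
si-hnRNPK siRNA-2: gccuccaucuaGAAGAGAutt
si-lncRNA-LBCS siRNA-1: gcugcucauuuGUCUGAUctt
si-lncRNA-LBCS siRNA-2: ggugguagucaACACAAAutt
si-PTBP1 siRNA-1: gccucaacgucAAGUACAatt
si-PTBP1 siRNA-2: cccucauugacCUGCACAatt

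The unit throughout is CPM, the counts per 1e6 reads of the library, and the libraries held between 54301152 and 70232674 reads on listed genes. HNRNPK stood at 783 CPM in control and 188 CPM in si-hnRNPK, which is 24.0% of control (95% counting interval 23.5 to 24.5). PTBP1 stood at 280.0 CPM in control and 89.7 CPM in si-PTBP1, which is 32.0% (31.0 to 33.1). The gene matched by both lncRNA-LBCS siRNAs (ENSG00000228412) had 110 reads in control and 103 reads in the library labelled si-lncRNA-LBCS, which is 81.8% of the control CPM with an interval of 61.9 to 108%. A lowering of that target was therefore not detectable at this depth, and the library keeps its label below without a check of its own. Of 16 urothelial markers, KRT8 and KRT18 alone reached 10 CPM in any library, while the 4 mesenchymal markers VIM, FN1, CDH2 and ZEB1 all did so in every library.

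**Figure D1:**
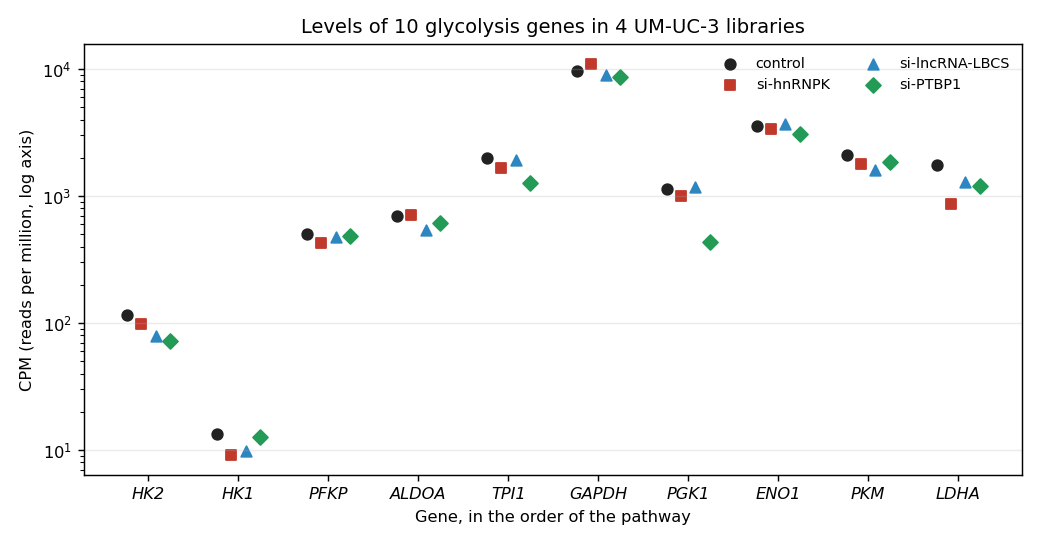
CPM (log axis) of the 10 glycolysis genes in the order of the pathway, with 1 point per library and no error bars because each condition is 1 library. GAPDH stands at 9716 CPM in control and HK1 at 13.4 CPM. The si-PTBP1 point of PGK1 (438 CPM) lies apart from the other 3 libraries of that gene, and the si-hnRNPK point of LDHA (863 CPM) is the lowest for LDHA.

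Together the 10 genes took 2.16% of all reads in control, 2.10% in si-hnRNPK, 1.97% in si-lncRNA-LBCS and 1.76% in si-PTBP1. To compare genes with one another, CPM was divided by the length of the merged exons of the gene in kilobases. GAPDH was the highest in control at 3259 CPM per kilobase, 4.44 times the next gene, TPI1, at 733. ENO1 followed at 676, then LDHA at 280.0, PKM at 246, PGK1 at 207, ALDOA at 179 and PFKP at 103 CPM per kilobase. The hexokinases closed the order, with HK2 at 19.1 and HK1 at 2.13 CPM per kilobase. Neighbours in this order could not all be separated: the ranges over the 4 libraries overlapped between TPI1 and ENO1, between LDHA and PKM, between PKM and PGK1 and between PGK1 and ALDOA. No overlap was found for GAPDH over TPI1, ENO1 over LDHA, ALDOA over PFKP, PFKP over HK2 and HK2 over HK1. With the length of the longest coding transcript in place of the merged exons, GAPDH remained first at 5182 CPM per kilobase, but ENO1 at 1521 stood above TPI1 at 1123, PKM at 775 above LDHA at 719.7 and ALDOA at 418 above PGK1 at 234. The ranges of ALDOA and PGK1 over the 4 libraries did not overlap on that scale.

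The first steps of the pathway were lower in most of the knockdown libraries. HK2 (chromosome 2, 74833981 to 74893359, plus strand, GRCh38), the hexokinase that many tumours induce, stood at 116 CPM in control, 99.1 in si-hnRNPK, 78.8 in si-lncRNA-LBCS and 71.8 in si-PTBP1. Control was thus the highest of the 4 libraries and si-PTBP1 the lowest, at 61.8% of control (59.5 to 64.3). HK2 was also the lowest member relative to control in si-lncRNA-LBCS, at 67.9% (65.5 to 70.3). HK1 (chromosome 10, 69269984 to 69401884, plus strand), the hexokinase of most tissues, stood at 13.4 CPM in control, 9.12 in si-hnRNPK, 9.75 in si-lncRNA-LBCS and 12.8 in si-PTBP1. The counting interval of HK1 in si-PTBP1, 85.8 to 105% of control, included no change, which was so for no other member in any comparison with control.

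PFKP (chromosome 10, 3066333 to 3137712, plus strand), the platelet type of phosphofructokinase, stood at 499.8 CPM in control, 425 in si-hnRNPK, 479 in si-lncRNA-LBCS and 487 in si-PTBP1, so that si-hnRNPK at 85.1% of control (83.6 to 86.5) was the farthest from it. ALDOA (chromosome 16, 30064164 to 30070457, plus strand), which splits fructose bisphosphate, stood at 699 CPM in control, 714 in si-hnRNPK, 544 in si-lncRNA-LBCS and 609 in si-PTBP1. It was the lowest in si-lncRNA-LBCS, at 77.8% of control (76.7 to 78.9), and close to control in si-hnRNPK, at 102% (101 to 104). TPI1 (chromosome 12, 6867119 to 6870948, plus strand), which interconverts both products of aldolase, stood at 1980.2 CPM in control, 1672 in si-hnRNPK, 1909.6 in si-lncRNA-LBCS and 1261 in si-PTBP1. The si-PTBP1 library was the lowest, at 63.7% of control (63.1 to 64.3), whereas si-lncRNA-LBCS was at 96.4%.

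GAPDH (chromosome 12, 6533927 to 6538374, plus strand) makes the NADH of glycolysis and is the most used reference gene of RT-qPCR. It stood at 9716 CPM in control, 11028 in si-hnRNPK, 8924 in si-lncRNA-LBCS and 8613 in si-PTBP1. The si-hnRNPK library was the highest of the 4, at 114% of control (113 to 114), and the other knockdown libraries were below control, at 91.8% (91.5 to 92.2) and 88.6% (88.3 to 89.0). GAPDH and ALDOA were the only members above control in si-hnRNPK by CPM.

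PGK1 (chromosome X, 77910739 to 78129296, plus strand), the first ATP-making enzyme of the pathway, showed the largest difference of any member. It stood at 1143 CPM in control, 1006 in si-hnRNPK, 1172 in si-lncRNA-LBCS and 438 in si-PTBP1. The si-PTBP1 library held 38.3% of the control level (37.8 to 38.9), while si-lncRNA-LBCS was at 103% (102 to 104) and si-hnRNPK at 88.0% (87.1 to 89.0). ENO1 (chromosome 1, 8861000 to 8879250, minus strand), the enolase of most tissues, stood at 3566 CPM in control, 3384 in si-hnRNPK, 3709 in si-lncRNA-LBCS and 3053 in si-PTBP1. All 4 values lay close together, with si-PTBP1 the lowest at 85.6% of control (85.1 to 86.2).

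PKM (chromosome 15, 72199029 to 72231822, minus strand) stood at 2107 CPM in control, 1782 in si-hnRNPK, 1610.0 in si-lncRNA-LBCS and 1845 in si-PTBP1. Control was the highest of the 4 libraries and si-lncRNA-LBCS the lowest, at 76.4% of control (75.8 to 77.0). In si-PTBP1 the gene held 87.6% of control (86.8 to 88.3), and in si-hnRNPK 84.6% (83.9 to 85.3). The sum over the whole gene therefore differed by less than 1.5-fold in every library, and it does not tell PKM1 from PKM2, because one CPM value per gene pools the reads of both. The exons that set them apart are shown because they carry what PTBP1 is known to control. Exon 9 (PKM1, chr15:72203022-72203188) and exon 10 (PKM2, chr15:72202454-72202620) lie on the minus strand and have 167 bases each in GENCODE 29. Capitals mark the 62 positions, counted without gaps, at which they differ.
PKM exon 9: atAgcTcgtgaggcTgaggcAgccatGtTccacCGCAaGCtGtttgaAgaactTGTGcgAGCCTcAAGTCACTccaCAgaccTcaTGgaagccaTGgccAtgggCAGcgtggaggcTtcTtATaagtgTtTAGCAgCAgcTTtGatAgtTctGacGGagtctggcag
PKM exon 10: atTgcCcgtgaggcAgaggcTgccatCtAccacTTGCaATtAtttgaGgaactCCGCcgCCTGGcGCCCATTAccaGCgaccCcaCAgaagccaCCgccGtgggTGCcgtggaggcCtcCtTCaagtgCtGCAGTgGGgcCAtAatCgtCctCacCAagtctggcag
The exons are identical at 105 of 167 positions (62.9%). Of 14 coding PKM transcripts in the annotation, 6 hold exon 9 and 3 hold exon 10. The pair was located as exons of equal length that no coding transcript holds together, so the absence of both is not a result.

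LDHA (chromosome 11, 18394388 to 18408425, plus strand), the subunit that favours lactate formation, was the member with the largest difference in si-hnRNPK. It stood at 1739 CPM in control, 863 in si-hnRNPK, 1290.0 in si-lncRNA-LBCS and 1189 in si-PTBP1. All 3 knockdown libraries were below control, and si-hnRNPK was the lowest of them, at 49.6% of control. Its counting interval, 49.1 to 50.2%, lay on both sides of a 2-fold difference. The corresponding values were 74.2% (73.5 to 74.8) in si-lncRNA-LBCS and 68.4% (67.7 to 69.1) in si-PTBP1.

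**Figure D2:**
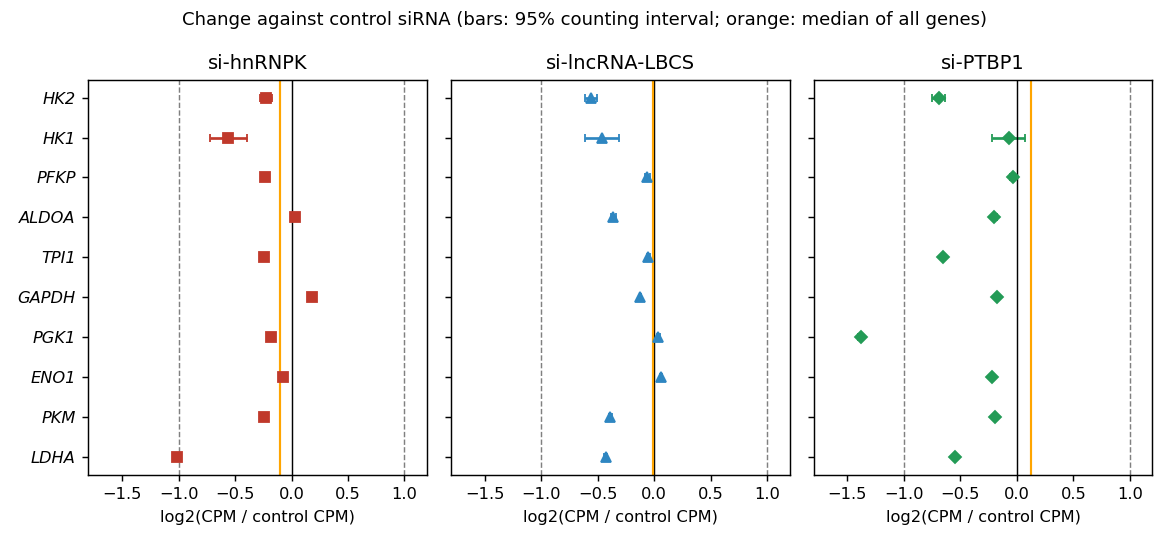
Log2 ratio of CPM in each knockdown library to CPM in the control library for the 10 genes, with 95% counting intervals as bars, dashed lines at 2-fold and an orange line at the median log2(CPM + 1) difference of all genes tested. LDHA in si-hnRNPK and PGK1 in si-PTBP1 lie at or past the 2-fold line, and all 10 genes lie to the left of the orange line in si-PTBP1.

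Set against all genes, differences are given as log2(CPM + 1) of the knockdown library minus that of control, for genes that reached 1 CPM in one of both libraries, and a difference of 1 is called 2-fold. In si-hnRNPK, 1 of 10 members was 2-fold lower, LDHA at -1.01, where 3.93% of 13672 genes were 2-fold lower, and 0 members were 2-fold higher, where 3.55% of genes were. In si-lncRNA-LBCS, 0 members were 2-fold lower or higher, where 1.01% of 13492 genes were lower and 0.378% higher. In si-PTBP1, 1 member was 2-fold lower, PGK1 at -1.38, where 0.613% of 13855 genes were lower and 2.92% higher. With so few members, 1 call in 10 is a description of LDHA and PGK1 and not of the pathway.

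At 1.5-fold, LDHA was still the only member lower in si-hnRNPK, beside 15.8% of genes lower and 9.89% higher. No member passed 1.5-fold in si-lncRNA-LBCS, beside 5.74% of genes lower and 4.14% higher. In si-PTBP1, HK2, TPI1 and PGK1 were 1.5-fold lower, 3 of 10 members, beside 3.12% of genes lower and 12.1% higher. Since 9 of the members are abundant, the genes at 100 CPM or more in one of both libraries give a closer background. There 17.0% of genes were 1.5-fold lower in si-hnRNPK, 5.15% in si-lncRNA-LBCS and 5.15% in si-PTBP1, beside 1, 0 and 3 of the 9 members. HK2 passed this filter through control alone (116 CPM, beside 99.1, 78.8 and 71.8 in the same order of knockdowns). It could thus count only as lower, and it is 1 of the 3 in si-PTBP1.

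More members were below control than above it in each comparison. In si-hnRNPK, 8 of 10 were below control, with a median difference of -0.23 beside -0.11 over all genes tested, and 7 lay below that all-gene median. Of all genes, 58.4% were below control in that library. ENO1, at -0.08, moved to 0.04 when the libraries were scaled by the median of ratios. In si-lncRNA-LBCS, 8 of 10 were below control, with a median of -0.24 beside -0.01 over all genes, where 51.8% of genes were below control. In si-PTBP1, 10 of 10 were below control, with a median of -0.21 beside 0.12 over all genes, where 36.5% of genes were below control. Among genes at 100 CPM or more, the median in si-PTBP1 was 0.001 and 49.7% were below control, against 9 of 9 members. The corresponding shares were 57.7% in si-hnRNPK and 54.2% in si-lncRNA-LBCS, against 7 of 9 members in each. HK2, which passed that filter through control alone and so could only be lower, is among these members in each comparison. Scaling by the median of ratios shifted log2 CPM by 0.11 upward in si-hnRNPK and by 0.13 downward in si-PTBP1, somewhat less for low genes in log2(CPM + 1), which put LDHA in si-hnRNPK at -0.90, short of 2-fold, and PGK1 in si-PTBP1 at -1.51. All 3 comparisons share the one control library, so they are not independent of one another. The counts also rest on that library. With the geometric mean of the 3 other libraries as reference, 6 of 10 members were lower in si-hnRNPK, 5 in si-lncRNA-LBCS and 7 in si-PTBP1.

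Comparisons among the knockdown libraries do not use the control. PGK1 in si-PTBP1 was 43.5% of its level in si-hnRNPK (42.9 to 44.2) and 37.4% of its level in si-lncRNA-LBCS (36.8 to 37.9). LDHA in si-hnRNPK was 66.9% of its level in si-lncRNA-LBCS (66.1 to 67.6) and 72.5% of that in si-PTBP1 (71.7 to 73.4). PGK1 was thus set apart in si-PTBP1 from each of the other 3 libraries by over 2-fold, whereas the 2-fold difference of LDHA was found against control alone. TPI1 in si-PTBP1 was 75.4% of si-hnRNPK (74.7 to 76.1) and 66.0% of si-lncRNA-LBCS (65.4 to 66.6). For PKM, si-PTBP1 and si-hnRNPK were close, at a ratio of 104% (103 to 104).

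The share of a step carried by each isoenzyme was computed from the levels per length. LDHA made up 46.1% of LDHA and LDHB together in control (45.8 to 46.3), 41.6% in si-lncRNA-LBCS (41.3 to 41.8) and 45.0% in si-PTBP1 (44.7 to 45.3). In si-hnRNPK the share was 33.6% (33.3 to 33.9). LDHB, the subunit of heart type, was itself at 83.7% of control in that library (82.6 to 84.7), where LDHA was at 49.6%. With the longest coding transcript as the length, the LDHA shares were 53.1% in control and 40.2% in si-hnRNPK, which keeps the difference between both libraries but puts LDHA above LDHB in control. PFKP made up 81.0% of phosphofructokinase in control and 74.8% in si-hnRNPK, 77.9% in si-lncRNA-LBCS and 80.9% in si-PTBP1. The liver type, PFKL, took 9.06% in control, 17.0% in si-hnRNPK, 15.9% in si-lncRNA-LBCS and 10.9% in si-PTBP1, and its own level was 173% of control in si-hnRNPK and 175% in si-lncRNA-LBCS. HK2 made up 90.0% of HK1 and HK2 in control and 85.4% in si-PTBP1 (84.4 to 86.4). ENO1 carried between 98.0% and 98.4% of its step over the 4 libraries, and ALDOA and GAPDH carried more of theirs in every library. These shares also depend on the length used. With the longest coding transcript, PFKP took 73.8% in control and 64.9% in si-hnRNPK, and PFKL 14.5% and 25.9%. HK2 took 85.7% in control and 79.6% in si-PTBP1 on that scale.

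**Figure D3:**
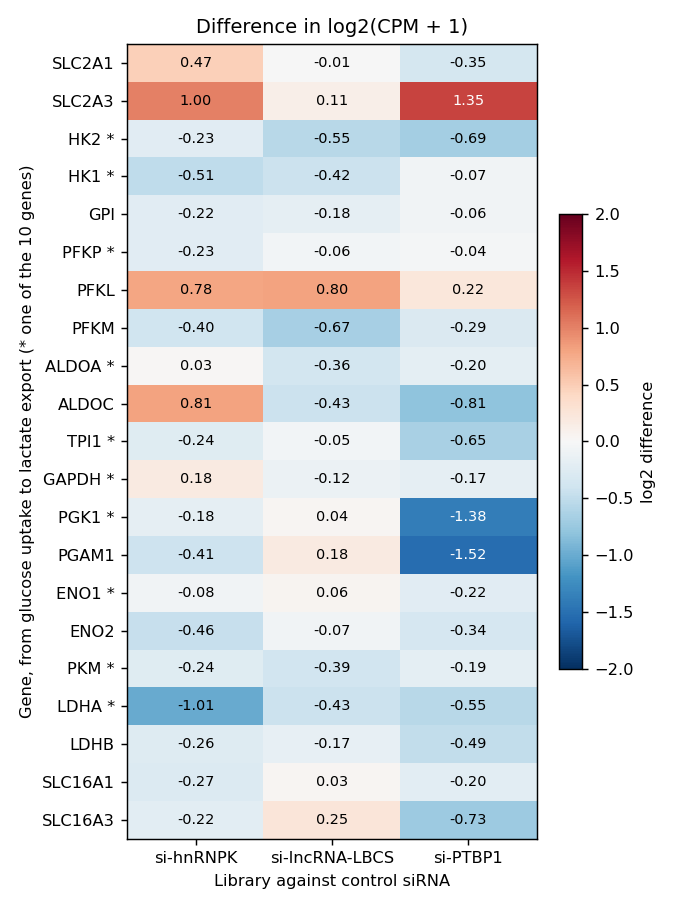
Difference in log2(CPM + 1) of each knockdown library against control for genes from glucose uptake to lactate export, with the value printed in each cell, red for higher and blue for lower. The adjacent steps PGK1 (-1.38) and PGAM1 (-1.52) are the lowest cells in si-PTBP1, LDHA (-1.01) is the lowest in si-hnRNPK, and SLC2A3 is the highest in si-PTBP1 (1.35).

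The rest of glucose metabolism was followed in 7 lists with 70 genes, of which 61 were listed and 54 could be compared in each library. In si-PTBP1, 4 of the 54 were 2-fold lower, where 0.613% of all genes were. Another 2 were 2-fold higher, where 2.92% of all genes were, and the median of the 54 was 0.05. The 4 lower genes included PGAM1, the mutase that takes the product of PGK1, at 667 CPM in control and 233 in si-PTBP1 against 502 in si-hnRNPK and 755 in si-lncRNA-LBCS. PHGDH, which draws the product of PGK1 off into serine synthesis, went from 46.6 CPM in control to 13.3 in si-PTBP1, the lowest ratio among the 54 genes at 28.6% (26.4 to 31.1). SHMT2, which turns serine into glycine in mitochondria, was at 211 CPM in control and 99.1 CPM in si-PTBP1. Both genes that were 2-fold higher had low levels: the glucose transporter SLC2A3 went from 4.17 to 12.1 CPM, and the mitochondrial pyruvate carrier subunit MPC1 from 10.8 to 23.1 CPM.

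In si-hnRNPK, 2 of the 54 were 2-fold lower, where 3.93% of all genes were, and 1 was 2-fold higher, where 3.55% were. The median of the 54 was -0.08. PDP2, a phosphatase that activates pyruvate dehydrogenase, went from 16.1 to 6.50 CPM, and PC, which carboxylates pyruvate for gluconeogenesis and anaplerosis, from 80.3 to 34.5 CPM. SLC2A3 was the higher gene, at 9.37 CPM and a difference of 1.00. In si-lncRNA-LBCS, 0 genes were 2-fold lower or higher, where 1.01% of all genes were lower and 0.378% higher. The median was 0.06, and the lowest and highest differences were those of PGD at -0.69 and PFKL at 0.80.

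List by list, the other glycolytic isoenzymes that could be compared numbered 11, and 7, 5 and 6 of them were below control in si-hnRNPK, si-lncRNA-LBCS and si-PTBP1. Of 10 transporters of glucose and lactate 4, 3 and 4 were below control, and of 9 regulatory enzymes 5, 5 and 5. For pyruvate entry into mitochondria 4, 3 and 1 of 7 were below control, for the pentose phosphate pathway 3, 4 and 3 of 7, for gluconeogenesis 2, 0 and 1 of 3, and for the serine and glycerol branches 5, 3 and 4 of 7. Over the 7 lists together, 30, 23 and 24 of 54 genes were below control, beside 58.4%, 51.8% and 36.5% of all genes. The lists were thus mixed in direction. Among 7 splicing factors that act on PKM, 7 were below control in si-hnRNPK with a median of -0.58, where 58.4% of all genes were below control, 5 in si-lncRNA-LBCS with -0.11 and 3 in si-PTBP1 with 0.03. The 3 in si-PTBP1 include PTBP1, the target of the siRNAs of that library. PTBP2, the neuronal paralogue of PTBP1, was at 141 CPM in control, 68.2 in si-hnRNPK, 77.5 in si-lncRNA-LBCS and 443 in si-PTBP1. PTBP1 itself stood at 280.0, 253, 327 and 89.7 CPM in the same order, so that si-PTBP1 held the lowest PTBP1 and the highest PTBP2.

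Seed matches were counted in the longest annotated 3′ UTR of each gene. For si-hnRNPK, 5 members (HK2, TPI1, GAPDH, PGK1 and LDHA) held a match to either siRNA, where 30.8% of 11430 genes at 1 CPM or more in control did. For si-lncRNA-LBCS 1 member did, HK2, where 25.6% of genes did, and for si-PTBP1 3 members did (ALDOA, ENO1 and LDHA), where 28.7% of genes did. The 3′ UTR of PGK1 has 3466 bases and holds no match to either PTBP1 siRNA. Sites are shown for LDHA and GAPDH, which stood on opposite sides of control in si-hnRNPK although both hold a match, and for PGAM1, the neighbour of PGK1 in the pathway. Capitals mark the 7 matching bases.
LDHA, si-hnRNPK siRNA-1: tcatgtcttgTGCATAAttcttccaaa
GAPDH, si-hnRNPK siRNA-2: agcacaagagGAAGAGAgagaccctca
LDHA, si-PTBP1 siRNA-2: ctcaagttttCTGCACAtttttctgaa
PGAM1, si-PTBP1 siRNA-2: cccctcccacCTGCACAtgtcacactg
LDHA, with 1 match to the hnRNPK siRNA-1, was at -1.01 in that library, and PGK1, also with 1 match to it, was at -0.18. GAPDH and TPI1, with 1 match each to siRNA-2, were at 0.18 and -0.24, and HK2, with 2 matches to it, was at -0.23. HK2 holds a match to each of both lncRNA-LBCS siRNAs and was the lowest member in that library at -0.55. In si-PTBP1, PGAM1 and SHMT2 hold a match to siRNA-2 while PHGDH does not, where 17.7% of genes hold one. Over all genes, those with a match to the hnRNPK siRNA-1 had a median of -0.26 and those without it -0.10, and for the PTBP1 siRNA-2 the medians were 0.07 and 0.12. For the hnRNPK siRNA-2 they were -0.17 and -0.10, and for the PTBP1 siRNA-1 0.06 and 0.12. For the lncRNA-LBCS siRNA-1 they were -0.08 and -0.01, and for its siRNA-2 -0.05 and -0.01. The part of these matches in the levels of the members was not tested.

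GAPDH was the reference of the RT-qPCR, so its own difference enters any value given relative to it. The primers are shown because the measurement rests on which transcripts they copy.
GAPDH forward: caaggctgagaacgggaag
GAPDH reverse: tgaagacgccagtggactc
By exact match the pair spans 10 annotated transcripts of 1 gene, GAPDH, with products of 128 to 257 bases, and 0 of its annotated pseudogenes. As compared with the mean of 13 other common reference genes, GAPDH differed by 0.07 in si-hnRNPK, by -0.12 in si-lncRNA-LBCS and by -0.13 in si-PTBP1 on the log2 scale of CPM. HNRNPK in si-hnRNPK was at 24.0% of control by CPM, 21.1% relative to GAPDH and 22.2% relative to the other reference genes. PTBP1 in si-PTBP1 was at 32.0%, 36.1% and 33.0%. Both targets were far below control under each reference.

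**Figure D4:**
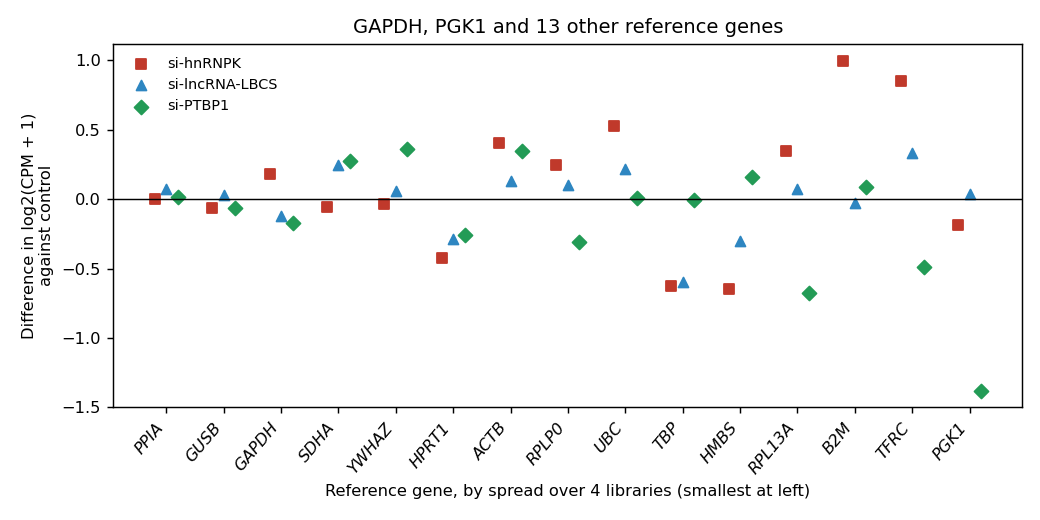
Difference in log2(CPM + 1) against control of 15 reference genes in the 3 knockdown libraries, ordered by the SD of log2 CPM over the 4 libraries. GAPDH follows PPIA and GUSB at the left and PGK1, at -1.38 in si-PTBP1, is last.

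Of these 15 reference genes, PPIA had the smallest spread, with an SD of log2 CPM of 0.03 over the 4 libraries, followed by GUSB at 0.05 and GAPDH at 0.16. PGK1, which is also used as a reference gene, had the largest, at 0.67. None of the 13 others reached a difference of 1, and the farthest were B2M at 0.999 and TFRC at 0.85, both in si-hnRNPK. This order and these differences hold for CPM without scaling of the libraries. With median-of-ratios scaling, GAPDH was at 0.29 in si-hnRNPK, -0.11 in si-lncRNA-LBCS and -0.30 in si-PTBP1. The order of the reference genes was not computed on that scale. HK2 relative to GAPDH was at 69.8% of control in si-PTBP1 in place of 61.8%, and LDHA relative to GAPDH at 43.7% in si-hnRNPK in place of 49.6%. PKM relative to GAPDH was at 98.8% of control in si-PTBP1, so that its difference there was about that of GAPDH itself. Among 1369 named genes that reached 100 CPM in every library, those whose 3 differences were nearest to those of GAPDH were DNAJB6, AP2S1 and SMS, at Euclidean distances of 0.08, 0.09 and 0.10. Nearest to PKM were PDAP1, PHB1 and WDR43, at 0.03, 0.04 and 0.05.

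Some members have near-identical copies in the genome. The annotation holds 85 genes named as pseudogenes of the members (member symbol, P and a number), 62 of them of GAPDH, and 31 were listed. Pseudogenes under other names are not counted. Their reads came to 325 in control, 238 in si-hnRNPK, 278 in si-lncRNA-LBCS and 326 in si-PTBP1, which is at most 0.0331% of the reads of the members, while reads lost from the members to shared positions cannot be counted here. PGK1 shares 97 of its 5512 exon bases with ATP7A on the same strand. ATP7A stood at 18.1, 16.7, 17.3 and 32.9 CPM in control, si-hnRNPK, si-lncRNA-LBCS and si-PTBP1, and was thus higher in the library where PGK1 was lower. PGK1 itself stood at 1143 CPM in control and 438 in si-PTBP1, and a passage of reads between both genes was not tested. ALDOA shares 1657 exon bases on the same strand with AC093512.2, a coding gene of the annotation that was not analysed here, and the reads of that stretch cannot be told apart.

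The promoters of the members were searched for ACGTG, the core of the motif bound by hypoxia-inducible factors, in RefSeq windows of 250 bases before to 50 bases after each gene start, on both strands. All 10 members matched the promoter table, with 24 windows in all, and 10 windows (41.7%) held the motif, where 21.4% of 35116 windows of all genes did. LDHA held up to 5 matches in a window, HK2 4, PGK1 3, ALDOA and GAPDH 2, and PFKP and TPI1 1, while HK1, ENO1 and PKM held 0. Counted by gene, 7 of the 10 members held the motif in at least 1 window. The share of all genes that did so was not computed, so this count has no background. LDHA and PGK1, which differed most in si-hnRNPK and in si-PTBP1, are among the 7, as is GAPDH, which stood above control in si-hnRNPK. Some genes have several windows, such as HK1 with 7 and PFKP with 4, so the shares count windows and not genes. A link between the motif and the levels of the members was not tested.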

How the data were processed

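UM-UC-3 cells were transfected with siRNA and sequenced as 100-base paired-end libraries, with 1 library per condition. The authors deposited 1 table of CPM per library, with Ensembl identifiers. The labels name hg19 as the build, and the aligner, counter and annotation are not given in the sources used here. Dividing by the step of 1 read gave whole numbers for 100% of the genes with reads (tolerance 0.01 read), and these are the reads used for intervals. Genes without reads (197 to 393 per table) carry a placeholder below 1 read and were treated as 0 reads.

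The 10 members and all lists were chosen with earlier results of these data known. Differences were taken in log2(CPM + 1) for genes reaching 1 CPM in 1 of 2 libraries, with a threshold of 1. The 95% intervals are exact (Clopper-Pearson, on the split of reads between 2 libraries). These cover counting error only and not the spread between cultures. No p-value is reported for a gene, and p-values across genes were computed only for the binomial alternative. Named are the members, the siRNA targets, list genes past a difference of 1 in any comparison (otherwise the 2 farthest from 0), pseudogenes of the members, and the 3 genes nearest to GAPDH and to PKM. PFKL, LDHB, PGD, PPIA, GUSB and ATP7A are named beside them, chosen after their values were seen. One gene of the lists that meets this rule is counted but not reported here. Positions, lengths, exons and 3′ UTRs come from GENCODE 29 on GRCh38, matched by identifier, and promoters from RefSeq on GRCh38. No coordinates of the authors were used. The alternatives were a pseudocount of 0.1, median-of-ratios scaling over 12362 genes, a 1.5-fold threshold, no filter, a 100 CPM filter, the geometric mean of the 3 other libraries as reference, another transcript length, other reference genes and an exact binomial test with Benjamini-Hochberg adjustment. Scripts were tested on simulated data and ran in Python 3.11.15 (scipy 1.17.1, numpy 2.4.6, statsmodels 0.14.6, pandas 2.3.3, matplotlib 3.10.9).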

Additional observations from a re-analysis of the deposited data

How the results depend on the processing

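No paired analysis was possible because each condition has 1 library, and no library could be left out. Median-of-ratios scaling moved the median of the members to -0.12 in si-hnRNPK and -0.34 in si-PTBP1, and that of the other metabolic genes to 0.033 and -0.067. Under it 0 members were 2-fold lower in si-hnRNPK, 2 other genes were 2-fold higher there and 1 in si-PTBP1. With the geometric mean of the other 3 libraries as reference, the medians of the members were -0.015 in si-hnRNPK, -0.048 in si-lncRNA-LBCS and -0.14 in si-PTBP1, 0 members were 2-fold lower in si-hnRNPK, and the sign turned for HK2 and PGK1, for PFKP, TPI1 and LDHA, and for HK1, PFKP and PKM respectively. A filter of 100 CPM, which removes HK1, gave a median of -0.12 in si-lncRNA-LBCS. A pseudocount of 0.1 gave 4 lower and 2 higher other genes in si-hnRNPK. At 1.5-fold, 3 members were lower in si-PTBP1. Of the other metabolic genes, 8 were lower and 9 higher in si-hnRNPK, 2 and 2 in si-lncRNA-LBCS, and 9 and 3 in si-PTBP1. Of all genes, 15.8% were lower and 9.89% higher in si-hnRNPK, 5.74% and 4.14% in si-lncRNA-LBCS, and 3.12% and 12.1% in si-PTBP1. Per length of the longest coding transcript, GAPDH was 3.41 times the next member in place of 4.44. Relative to other reference genes, HNRNPK differed by -2.17 in place of -2.24 (log2) and PTBP1 at -1.60 in place of -1.47. For each shift the cause was not tested. The binomial test, which compares libraries and not conditions, called 10872 of 13672 genes in si-hnRNPK, 9479 of 13492 in si-lncRNA-LBCS and 10182 of 13855 in si-PTBP1 at an adjusted p of 0.05, with 10, 10 and 9 of the members, and left the 2-fold counts of members as they were. Depth limits HK1 most, at 495 to 824 reads, and the lncRNA-LBCS target.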

Other observations

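The serine and glycerol list had a median of -0.12 in si-hnRNPK beside -0.11 over all genes, and of -0.02 in si-PTBP1 beside 0.12. In si-PTBP1, 2 of its 7 genes were 2-fold lower, where 0.613% of all genes were, and 0 were 2-fold higher, where 2.92% were. Within the list, PHGDH, the first enzyme of serine synthesis, stood at 46.6 CPM in control, 23.1 in si-hnRNPK, 42.1 in si-lncRNA-LBCS and 13.3 in si-PTBP1. PSAT1, the next enzyme, stood at 36.4, 20.3, 29.3 and 20.7 CPM in the same order. Both were lower in si-hnRNPK and si-PTBP1 than in the other libraries, and the call of 2-fold was reached only by PHGDH in si-PTBP1, with PHGDH in si-hnRNPK at -0.98. PSPH, the last enzyme of the branch, was above control in all 3 knockdown libraries, at 18.1 CPM in control and 20.6 to 23.2 CPM in the others. SHMT1, the cytosolic partner of SHMT2, was at 28.0 CPM in control and 14.6 in si-hnRNPK but 27.6 in si-PTBP1, where SHMT2 was at 99.1 CPM against 211 in control. PFKFB4, which sets the level of the activator of phosphofructokinase, was at 64.1 CPM in control, 31.9 in si-hnRNPK, 76.8 in si-lncRNA-LBCS and 36.1 in si-PTBP1. PSAT1, PSPH, SHMT1 and PFKFB4 were chosen after their values were seen, and all of these are values of 1 library per condition.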
